A study of Mus musculus with 3 samples.

Results

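The transcription factor *Hif1a* and 9 genes of glucose uptake, glycolysis and hypoxia response (*Slc2a1*, *Hk2*, *Pfkfb3*, *Pgk1*, *Aldoa*, *Eno1*, *Pkm*, *Ldha* and *Bnip3*) were followed through the cells of the mouse ovary. These 10 genes were taken by name from the 24958 genes of the deposited single-cell table, and the list was drawn up with earlier results of these data known. The labels describe 3 libraries of *Mus musculus* ovary made on the 10x Genomics platform, taken 0, 1 and 6 h after hCG, which mimics the surge of LH and so sets off ovulation. Each time point had 1 library, so there is no replicate. The labels give no strain, genotype or age. The paper's methods describe 21-day-old Kunming mice given PMSG, which acts like FSH, 48 h earlier, which fits the 0 h library. For the later times PMSG is named neither there nor in the labels. The column names carry barcodes ending in 1, 2 or 3, and no source used here ties an ending to a library. The cells are therefore described as barcode sets 1, 2 and 3, with no time point given to any set.

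Glycolysis turns glucose into pyruvate in the cytosol, and lactate dehydrogenase then converts pyruvate to lactate. HIF-1, a dimer of the protein of *Hif1a* and that of *Arnt*, is stabilized when oxygen is low, since prolyl hydroxylases otherwise mark its alpha subunit for degradation, and it binds hypoxia response elements near many glycolysis genes. In the ovary, granulosa cells lie inside an avascular follicle, supply the oocyte with pyruvate and lactate, and transcribe *Hif1a* after gonadotropin stimulation. HIF-1 activity is set mostly by protein stability, which mRNA levels do not show.

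The table held 31776 cells, 10384 in set 1, 9917 in set 2 and 11475 in set 3, with median depths of 6093, 6352 and 6524 UMIs per cell. A UMI is a molecular tag counted once per captured mRNA. Cells were gated into classes by the share of marker genes detected, and 6 classes with at least 50 cells in each set were kept, with 23101 cells in all. Granulosa-gated cells numbered 2526, 2883 and 2218 in sets 1, 2 and 3, theca-gated cells 1361, 606 and 881, stroma-gated cells 3177, 3058 and 4138, endothelial-gated cells 450, 698 and 445, myeloid-gated cells 85, 111 and 136, and smooth muscle and pericyte-gated cells 82, 85 and 161. No member was a marker. Set 3 stood apart in its markers. The median summed level of the 10 granulosa markers in granulosa-gated cells was 119.7, 124 and 51.97 UMIs per 10000, and that of the 8 stroma markers in stroma-gated cells 90.4, 82.6 and 46.1. In theca-gated cells, the 6 theca markers summed to 149, 115 and 67.4 while the granulosa markers summed to 11.6, 16.9 and 24.6, and *Cyp17a1*, the androgen-making enzyme that defines theca cells, was detected in 82.3%, 81.02% and 53.01% of them. The theca gate of set 3 thus goes partly against its name. For some of the values that turn on it, those of the cells with *Cyp17a1* are given too. The median share of mitochondrial transcripts was also lower in set 3 (4.39, 4.92 and 3.31% in granulosa-gated cells). The sets shared 27, 46 and 39 cell barcodes in pairs (sets 1 and 2, 1 and 3, 2 and 3), and 0 barcodes occurred in all 3.

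A level below is the mean over the cells of a class of UMIs per 10000 UMIs of the cell, and ratios are ratios of such levels. Ranges in parentheses are exact 95% intervals for the summed UMIs. They cover counting error only, without the spread between cells of a class or between animals. They are too narrow, also because deep and shallow cells weigh alike. Orders read from their overlap hold for counting error only. No test was possible. A gene was called higher or lower past 1.5-fold, and counts of members are set beside the percentage of all genes, among those at a level of at least 0.5 in either group, that passed the same fold in the same direction. Members below that level are called by the same fold, with wider intervals. Over all cells, *Ldha* (103124 UMIs, detected in 77.5% of cells) and *Aldoa* (98023 UMIs) had the most counts, and *Pfkfb3* (3473 UMIs, 8.08%) and *Slc2a1* (5828 UMIs, 14.6%) the fewest.

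To ask which ovarian cells carry this program, granulosa-gated cells were first compared with all other gated cells within each set. Granulosa-gated cells had more of most members in every set, with *Hk2* as the member that was lower in all 3. The other gated cells numbered 5167, 4581 and 5766 in sets 1, 2 and 3, of which 3177, 3058 and 4138 were stroma-gated. Theca-gated cells, which are also follicular, were near or above granulosa-gated cells for some members, as given below. In set 1, 8 members were higher and 1 was lower, where 19.5% of all genes were higher and 16% lower. In set 2 the counts were 7 and 1, beside 19.4% and 19.7% of all genes. In set 3 they were 6 and 1, beside 17.9% and 13.9%. The median ratio of the 10 members was 1.905, 2.16 and 1.73 in the 3 sets, against 1.13, 1.04 and 1.07 for all genes. Of the 10, 8 reached a level of 0.5 in at least one of the groups in each set, and *Slc2a1* and *Pfkfb3* did not.

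*Hif1a*, the oxygen-regulated subunit of HIF-1, had its highest level in granulosa-gated cells in each set, at 2.05 (1.99 to 2.12), 2.59 (2.53 to 2.66) and 3.49 (3.41 to 3.57) in sets 1, 2 and 3. Stroma-gated cells had 0.7605, 0.821 and 1.07, and endothelial-gated cells had 1.67, 1.57 and 1.58. The granulosa level lay above that of the other gated cells by 2.31-fold (2.204 to 2.42), 2.75-fold (2.63 to 2.88) and 2.44-fold (2.35 to 2.52). In set 1 the order ran granulosa, endothelial, smooth muscle and pericyte, theca, myeloid and stroma, where the intervals of endothelial and smooth muscle and pericyte, of theca and myeloid, and of myeloid and stroma overlapped. In set 3 theca-gated cells were next to granulosa-gated cells at 2.95 (2.82 to 3.08), against 0.891 in set 1, and with *Cyp17a1* required their level was 2.01 against 0.833. Theca-gated cells of set 3 without *Cyp17a1* had 4.01 (3.77 to 4.25), above granulosa-gated cells.

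*Slc2a1*, which encodes the glucose transporter GLUT1, stayed below a level of 0.5 in all 18 class-by-set groups. Endothelial-gated cells had 0.398 (0.329 to 0.477), 0.446 (0.384 to 0.514) and 0.285 (0.221 to 0.363) in sets 1, 2 and 3. Granulosa-gated cells had 0.204 (0.184 to 0.227), 0.329 (0.305 to 0.355) and 0.358 (0.332 to 0.386) in sets 1, 2 and 3. Endothelial-gated cells were thus highest in sets 1 and 2. In set 3 the intervals of all 6 classes overlapped from one class to the next in the order, but not between its ends. Theca-gated cells had 0.376 (0.332 to 0.423) there and stroma-gated cells 0.161 (0.147 to 0.176). With *Cyp17a1* required, theca-gated cells of set 3 had 0.322 (0.274 to 0.377).

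The early regulators of the pathway had distinct distributions. *Hk2*, a hexokinase that traps glucose as glucose 6-phosphate, was highest in stroma-gated cells in sets 1 and 3 and in theca-gated cells in set 2, where the intervals of these classes overlapped. Stroma-gated cells had 0.956 (0.915 to 0.998), 1.23 (1.18 to 1.28) and 2.42 (2.37 to 2.48) in sets 1, 2 and 3, and theca-gated cells had 0.641, 1.32 and 0.787. Myeloid-gated cells had 0.3703, 0.504 and 0.953, above theca-gated cells in set 3 with overlapping intervals. Granulosa-gated cells had 0.185, 0.526 and 0.409, and endothelial-gated cells, the lowest class in each set, had 0.0478, 0.0587 and 0.0682. Stroma-gated cells exceeded all other gated cells by 3.08-fold, 2.22-fold and 5.15-fold, and 15%, 15.7% and 13.2% of all genes were past 1.5-fold higher there. *Pfkfb3*, whose product makes fructose 2,6-bisphosphate and so drives phosphofructokinase, went the other way, with granulosa-gated cells highest in sets 2 and 3. Their levels were 0.0959 (0.0826 to 0.111), 0.313 (0.2896 to 0.337) and 0.207 (0.188 to 0.227) in sets 1, 2 and 3, and stroma-gated cells had 0.0473, 0.0668 and 0.0388. In set 2 the granulosa interval overlapped that of myeloid-gated cells. In set 1 endothelial-gated (0.144) and myeloid-gated cells (0.13) had more, with intervals that overlapped from one class to the next. In smooth muscle and pericyte-gated cells of set 3 no *Pfkfb3* UMI was found among 161 cells.

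The later enzymes differed in which class was highest. *Eno1*, the enolase, was highest in granulosa-gated cells in each set at 2.93 (2.86 to 3.01), 1.81 (1.76 to 1.87) and 2.15 (2.08 to 2.21) in sets 1, 2 and 3, and stroma-gated cells were lowest at 0.607, 0.441 and 0.736. Granulosa-gated cells exceeded the other gated cells by 3.45-fold, 3.03-fold and 2.43-fold. *Eno1b*, a near-identical intronless copy of *Eno1*, held 470 UMIs against 36821, so that a small part of *Eno1* reads may have been split between these rows. *Pgk1*, phosphoglycerate kinase and the first ATP-making step, had 2.16, 1.98 and 3.42 in granulosa-gated, 1.203, 1.13 and 4.18 in theca-gated and 0.787, 0.728 and 1.54 in stroma-gated cells, so that theca-gated cells were highest in set 3, and those with *Cyp17a1* had 3.64 there. *Aldoa*, the aldolase that splits fructose 1,6-bisphosphate, was shared by granulosa-gated cells (4.92, 4.24 and 5.45) and theca-gated cells (4.89, 4.37 and 5.33), whose intervals overlapped in every set. In set 3 this holds for the theca gate as a whole, where *Cyp17a1* was detected in 53.01% of the cells. *Pkm*, pyruvate kinase, varied least across classes in sets 1 and 2, with a highest class at 1.98-fold and 1.79-fold of the lowest. In set 3 myeloid-gated cells led with 4.86 (4.32 to 5.46), against 4.05 (3.97 to 4.14) in granulosa-gated cells.

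*Ldha*, which encodes the lactate dehydrogenase A subunit, changed place between the sets. Granulosa-gated cells were highest in sets 1 and 2, and stroma-gated cells were highest in set 3. Granulosa-gated cells had 3.74 (3.66 to 3.83), 4.37 (4.28 to 4.45) and 6.03 (5.92 to 6.14) in sets 1, 2 and 3. Stroma-gated cells had 1.93 (1.87 to 1.99), 2.66 (2.59 to 2.73) and 7.65 (7.56 to 7.75) in sets 1, 2 and 3. The ratio of granulosa-gated to other gated cells went from 1.98-fold (1.92 to 2.04) in set 1 and 1.63-fold (1.59 to 1.68) in set 2 to 0.869-fold (0.851 to 0.888) in set 3. *Bnip3*, a mitophagy receptor of the outer mitochondrial membrane and a well-known HIF-1 target, was highest in granulosa-gated cells in sets 1 and 2 and in theca-gated cells in set 3. Granulosa-gated cells had 1.32 (1.27 to 1.38), 0.791 (0.754 to 0.829) and 1.19 (1.14 to 1.24) in sets 1, 2 and 3 and theca-gated cells 0.674, 0.509 and 1.47. In set 3 the theca-gated cells with *Cyp17a1* had 1.14 (1.05 to 1.24), slightly below granulosa-gated cells with overlapping intervals, and those without it had 1.84 (1.68 to 2.01). Endothelial-gated cells were lowest at 0.127, 0.0851 and 0.0777.

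**Figure D1:**
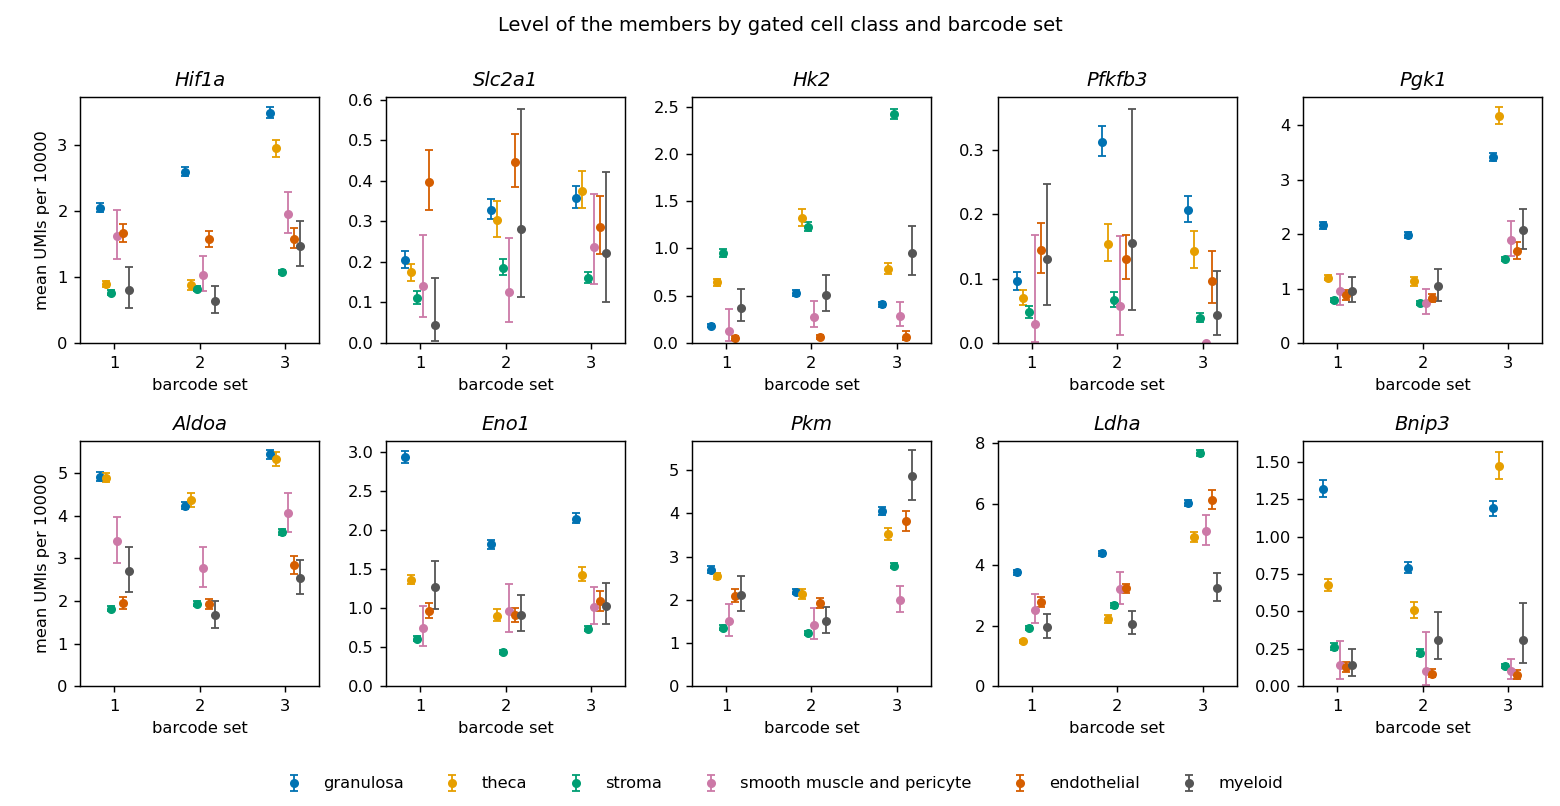
Level of each of the 10 genes (y axis, mean UMIs per 10000 over the cells of a class) in barcode sets 1, 2 and 3 (x axis), with 1 color per gated class and bars for the 95% counting interval. Granulosa-gated cells (blue) are the highest class for Hif1a and Eno1 in every set, and stroma-gated Ldha and Hk2 (green) are highest in set 3 at 7.65 and 2.42.

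Part of what is counted outside granulosa cells can be free RNA. *Inha*, a granulosa gene, was found in stroma-gated cells at 3.81%, 4.82% and 4.51% of its granulosa level, and in endothelial-gated cells at 3.89%, 4.88% and 4.85%. Apart from *Pfkfb3* in smooth muscle and pericyte-gated cells of set 3, the lowest member by this measure was *Bnip3* in endothelial-gated cells, at 9.62%, 10.8% and 6.55% of its granulosa level, not far above the *Inha* shares. In smooth muscle and pericyte-gated cells of set 3, *Bnip3* stood at 8.44% and *Inha* at 8.34%. All members in stroma-gated cells lay above the *Inha* share, the lowest being *Bnip3* at 11.4% in set 3. *Inha* in theca-gated cells stood at 22.9%, 40.3% and 84.3%, and *Fst*, another granulosa marker, at 9.05%, 19.95% and 39.5%. How much of these theca values is free RNA was not tested.

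The 250 bases before the transcription starts of the members were searched for the core of the hypoxia response element, ACGTG or GCGTG, on both strands. On the strand shown, the reverse matches read CACGT and CACGC, and CACGTG counts as a match on each strand. All 10 members matched the RefSeq promoter table (GRCm38.p6) with 17 windows, and 15 of these windows and 10 of 10 members held a match. Of the 32851 windows of all genes 38.6% held one, and 41.5% of 27025 genes did. The members were chosen partly as genes tied to HIF-1, so these shares do not test a link to it. The 17 windows include overlapping ones of *Aldoa* and of *Eno1* that hold the same matches. A match in these letters is a description of the window, not a bound site. The windows shown are those of the regulator *Hif1a* and of 4 members on which the comparisons turn, with the matches in capitals, read 5′ to 3′ in the direction of transcription.
Ldha, first window (chr7:46845554-46845803, plus strand): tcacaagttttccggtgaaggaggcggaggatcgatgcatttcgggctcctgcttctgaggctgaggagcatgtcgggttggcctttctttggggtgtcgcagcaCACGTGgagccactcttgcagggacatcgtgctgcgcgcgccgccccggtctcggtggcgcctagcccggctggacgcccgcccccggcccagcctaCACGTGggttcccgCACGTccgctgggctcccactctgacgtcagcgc
Bnip3 (chr7:138909507-138909756, minus strand): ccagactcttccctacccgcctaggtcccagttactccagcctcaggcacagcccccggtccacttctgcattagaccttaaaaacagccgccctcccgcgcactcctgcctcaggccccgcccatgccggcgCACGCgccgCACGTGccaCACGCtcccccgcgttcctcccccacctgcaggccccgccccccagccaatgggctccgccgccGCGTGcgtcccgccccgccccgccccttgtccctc
Hk2 (chr6:82774455-82774704, minus strand): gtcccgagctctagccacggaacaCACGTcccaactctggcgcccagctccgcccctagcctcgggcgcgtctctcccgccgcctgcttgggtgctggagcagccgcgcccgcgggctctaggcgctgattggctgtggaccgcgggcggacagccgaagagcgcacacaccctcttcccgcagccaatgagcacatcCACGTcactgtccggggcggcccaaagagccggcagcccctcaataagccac
Pgk1 (chrX:106186850-106187099, plus strand): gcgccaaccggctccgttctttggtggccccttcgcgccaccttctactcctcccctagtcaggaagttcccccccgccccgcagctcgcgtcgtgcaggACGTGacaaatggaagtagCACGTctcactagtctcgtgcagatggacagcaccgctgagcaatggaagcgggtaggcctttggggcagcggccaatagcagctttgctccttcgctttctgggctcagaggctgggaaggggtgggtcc
Hif1a (chr12:73907617-73907866, plus strand): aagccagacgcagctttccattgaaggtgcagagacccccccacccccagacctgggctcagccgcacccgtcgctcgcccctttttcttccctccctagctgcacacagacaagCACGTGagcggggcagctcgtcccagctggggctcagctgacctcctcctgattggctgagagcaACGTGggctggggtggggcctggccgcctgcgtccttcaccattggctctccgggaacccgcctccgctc
*Ldha* held 5 matches in 3 separate stretches in this window and 1 match in its second one, and *Bnip3* held 5 matches in 4 stretches. Windows with 3 or more separate stretches made up 4.56% of all windows. *Hk2*, *Pgk1* and *Hif1a* itself each held matches in 2 stretches, where 13.4% of all windows had 2 or more. So did *Slc2a1*, 1 window of *Pfkfb3* and 2 windows of *Eno1* that overlap and hold the same matches. Of the 2 genes with the most stretches, *Ldha* was higher and *Bnip3*, at low levels, was lower in stroma-gated cells of set 3 than of set 1. In theca-gated cells both were higher, so these directions did not hold for every class. A link between matches and levels was not tested.

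The members lie on 7 chromosomes of GRCm38. *Hif1a* (ENSMUSG00000021109) spans chr12:73901375-73947530 on the plus strand, *Ldha* (ENSMUSG00000063229) chr7:46841475-46855627 on the plus strand, *Hk2* (ENSMUSG00000000628) chr6:82725025-82774454 on the minus strand, and *Bnip3* (ENSMUSG00000078566) chr7:138890836-138909519 on the minus strand. The first *Ldha* window and the *Hif1a* window lie inside the annotated spans of their genes, which begin further upstream. In all, 2 gene identifiers carry the symbol *Aldoa* in the annotation (ENSMUSG00000030695 and ENSMUSG00000114515), and the table has 1 row for it.

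Granulosa cells of different follicle stages were then separated by sub-gates within the granulosa gate, again without any member among the markers. In antral mural cells, marked by genes such as *Lhcgr* and *Cyp19a1*, nearly the whole list was higher than in preantral cells, marked by genes such as *Amh*. In set 1, 8 members were higher and 1 was lower, and in each of the other sets 9 were higher and 0 lower. The percentages of all genes called higher were 20.6%, 21.2% and 24.5%, and of those called lower 13.3%, 25.3% and 14.2%. The members' median ratio was 2.07, 2.07 and 2.59, against 1.1, 0.929 and 1.09 for all genes. The lower member of set 1 was *Pfkfb3*, at 0.617-fold (0.403 to 0.967), which was not called in set 2 and was higher in set 3. *Eno1* showed the widest gap in set 1, 4.501 in antral mural and 0.812 in preantral cells, a ratio of 5.54-fold (4.69 to 6.595). *Bnip3* followed at 4.63-fold (3.71 to 5.85). The numbers of antral mural cells were 1277, 1219 and 79, and of preantral cells 190, 243 and 512, so that the make-up of the granulosa gate differed between the sets.

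Within the preantral gate, *Hif1a* differed less between the sets than in the whole granulosa gate. Whether the gate held like cells in each set was not tested. The *Hif1a* level there was 1.503 (1.32 to 1.699), 1.38 (1.24 to 1.54) and 1.49 (1.38 to 1.61) in sets 1, 2 and 3, and set 3 over set 1 gave 0.991-fold (0.857 to 1.15), an interval that includes 1. In antral mural cells the levels were 2.77 (2.67 to 2.89), 2.88 (2.77 to 2.99) and 4.81 (4.37 to 5.28) in sets 1, 2 and 3, and set 3 over set 1 gave 1.73-fold (1.56 to 1.92). The counting interval of the antral mural ratio thus lay wholly above that of the preantral ratio. The difference between these ratios was not tested, since no set has a replicate, and set 3 had 79 antral mural cells. *Pgk1*, by contrast, was higher in set 3 in preantral cells too, by 1.62-fold (1.396 to 1.897), as was *Ldha*, by 1.61-fold (1.44 to 1.8).

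Expanding cumulus cells were gated in part by genes of the hyaluronan-rich matrix that forms around the oocyte at ovulation, such as *Has2*. The other markers of this gate, such as *Areg*, are not matrix genes. Whether all cells so gated were cumulus cells was not tested. Cells of this gate were found in sets 2 and 3 (150 and 244 cells) and not in set 1 (0 cells). All 10 members were higher in them than in preantral cells in both sets, where 21.6% and 26.1% of all genes were higher. *Hif1a* reached 3.71 (3.401 to 4.05) in set 2 and 6.42 (6.14 to 6.72) in set 3, the latter the highest *Hif1a* level of any class or sub-gate described. *Ldha* stood at 7.596 and 9.79 (9.44 to 10.2), and *Slc2a1* at 0.375 and 0.784 (0.683 to 0.896). *Pkm* reached 6.59 in set 3 against 2.7 in preantral cells. Between the sets, expanding cumulus cells had 4 members higher and 0 lower in set 3 than in set 2, while 38.7% of all genes were higher and 17.2% lower, so that the share of higher members was near the background. The 4 were *Slc2a1*, *Hif1a*, *Pkm* and *Bnip3*.

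Atretic-gated granulosa cells, selected by markers of follicles in regression, had *Hif1a* in set 1 at 1.19 and *Aldoa* at 1.903, against preantral levels of 1.503 and 2.93. Over preantral cells of set 1, 1 member was higher and 2 were lower, beside 16.8% and 10.3% of all genes, with a median ratio of 1.11 for the members. In set 2, 4 were higher and 0 lower, beside 16.9% and 12.2% of all genes, and in set 3, 6 were higher and 0 lower, beside 11.6% and 6.57%. In set 3 their *Hif1a* was 2.47 and their *Ldha* 5.88. Atretic-gated cells of set 3 had 7 members higher and 0 lower than those of set 1, beside 14.3% and 17.4% of all genes, from 195 cells in set 3 and 467 in set 1. Among them were *Ldha* at 2.52-fold (2.301 to 2.75) and *Aldoa* at 2.38-fold (2.15 to 2.64). Granulosa-gated cells in no sub-gate had 9 higher and 0 lower, beside 18.4% and 17.9% of all genes, and *Bnip3* there stood at 2.04-fold (1.79 to 2.33), where over the whole granulosa gate it was 0.8998-fold. The other sub-gates had fewer calls in set 3 over set 1. Antral mural cells had 3 members higher and 0 lower, beside 18.6% and 17.7% of all genes. Preantral cells had 3 and 0, beside 9.2% and 10.9%, and mitotic cells 4 and 1, beside 10.6% and 16.4%. *Ldha* stood at 1.17-fold (1.07 to 1.29) in antral mural cells. *Bnip3* stood at 0.876-fold (0.735 to 1.04) in antral mural and at 0.682-fold (0.518 to 0.903) in preantral cells. Mitotic granulosa cells were higher than the rest of the granulosa gate for 1 member in set 1, *Ldha*, at 1.65-fold (1.57 to 1.73), while 10.2% of all genes were higher. In set 2, 3 were higher (*Pkm*, *Eno1* and *Pgk1*) and 1 was lower (*Pfkfb3*), beside 9.51% and 7.74% of all genes, and *Ldha* stood at 1.41-fold (1.36 to 1.48). In set 3, 0 were called in either direction, where 11% of all genes were, and *Ldha* stood at 1.14-fold (1.1 to 1.18).

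**Figure D2:**
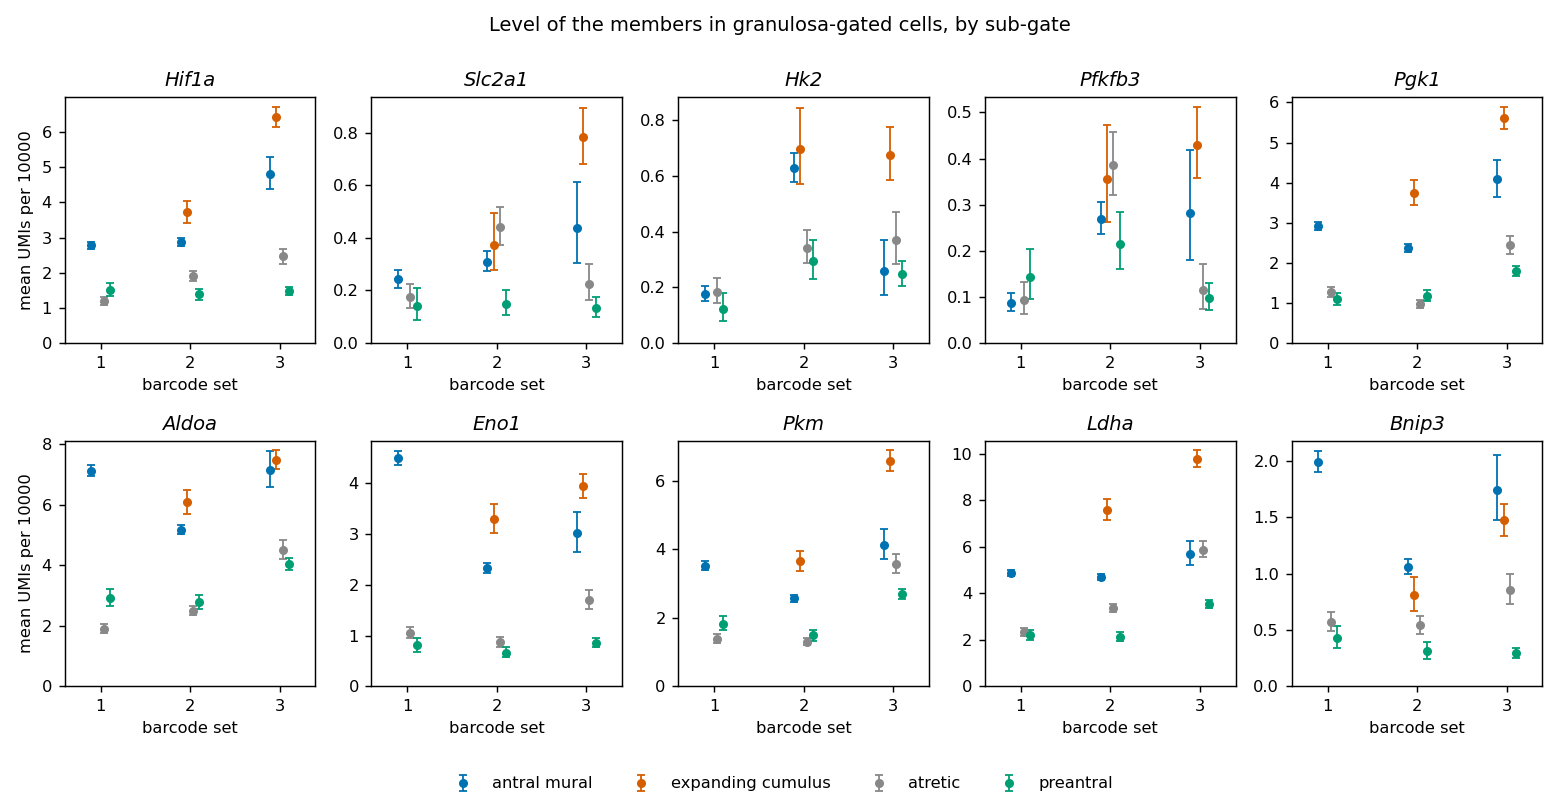
Level of each member (y axis, mean UMIs per 10000) in 4 sub-gates of granulosa-gated cells by barcode set (x axis), with 95% counting intervals. Preantral Hif1a (green) stays between 1.38 and 1.503 in the 3 sets, while expanding cumulus cells (orange, sets 2 and 3) reach 6.42.

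Between the barcode sets, granulosa-gated cells of set 2 had *Pfkfb3*, *Hk2* and *Slc2a1* higher and *Bnip3* and *Eno1* lower than those of set 1. In all, 3 members were higher and 2 lower, where 11% of all genes were higher and 22.5% lower. *Pfkfb3* was 3.26-fold (2.77 to 3.86) higher, *Hk2* 2.85-fold (2.53 to 3.22) and *Slc2a1* 1.61-fold (1.41 to 1.84). *Pfkfb3* and *Slc2a1* were below a level of 0.5 in both sets. *Bnip3*, at 0.599-fold (0.562 to 0.638), and *Eno1*, at 0.619-fold (0.594 to 0.644), were lower. *Hif1a* itself stood at 1.26-fold (1.21 to 1.32), within 1.5-fold. The median of all genes was 0.845, with more genes lower than higher, while each cell sums to the same total. After division by that median, the 3 higher calls held and *Eno1* and *Bnip3* were no longer called lower.

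In set 3, 7 members were higher than in set 1 in granulosa-gated cells and 0 were lower, beside 13.8% and 16.5% of all genes, and the medians were 1.595 for the members and 0.9996 for all genes. *Hk2* stood at 2.22-fold (1.96 to 2.52), *Pfkfb3* at 2.16-fold (1.82 to 2.58), *Slc2a1* at 1.75-fold (1.54 to 1.998) and *Hif1a* at 1.7-fold (1.63 to 1.77). *Ldha*, *Pgk1* and *Pkm* followed at 1.61-fold, 1.58-fold and 1.503-fold. Of these 7, *Hk2*, *Pfkfb3* and *Slc2a1* were below a level of 0.5 in both sets. The *Hif1a* ratio exceeded that of 90.7% of all genes. *Eno1* stood at 0.732-fold (0.703 to 0.762) over the whole gate, and its sub-gates differed. It had 0.673-fold (0.588 to 0.766) in antral mural, 1.05-fold (0.869 to 1.29) in preantral and 1.61-fold (1.38 to 1.86) in atretic-gated cells, and 1.37-fold (1.26 to 1.498) in cells of no sub-gate. With a stricter gate, 4 members were called higher instead of 7 and 0 lower, beside 11.2% and 16.2% of all genes under that gate.

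Set 3 over set 2 in granulosa-gated cells gave 3 higher and 1 lower members. Of all genes, 27.9% were higher and 15.2% lower, so that the share of members was near the background. The higher ones were *Pkm* at 1.85-fold (1.79 to 1.92), *Pgk1* at 1.73-fold (1.66 to 1.79) and *Bnip3* at 1.502-fold (1.41 to 1.599), and the lower one was *Pfkfb3* at 0.663-fold (0.586 to 0.748).

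**Figure D3:**
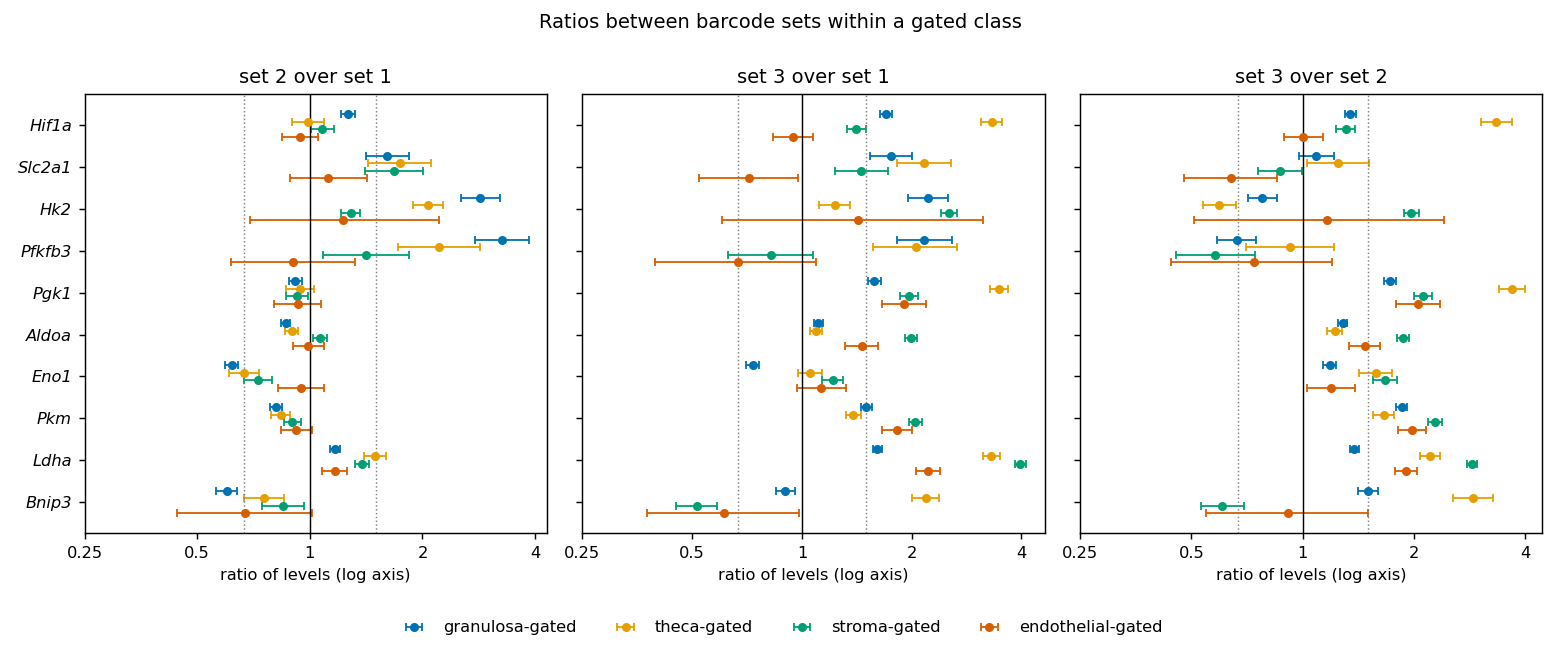
Ratio of levels between barcode sets (x axis, log scale) for each member (y axis) within 4 gated classes, with 95% counting intervals, a solid line at 1 and dotted lines at the 1.5-fold call. Stroma-gated Ldha lies at 3.97 in set 3 over set 1, the largest ratio shown in that panel, and granulosa-gated Pfkfb3 at 3.26 in set 2 over set 1.

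Stroma-gated cells of sets 1 and 2 differed by less than 1.5-fold in all members but *Slc2a1*, which stood at 1.68-fold (1.41 to 2.01) at levels below 0.5, where 5.33% of all genes were higher and 5.21% lower. *Ldha* stood at 1.38-fold (1.32 to 1.44), within the call but above 92.9% of all genes. In set 3 against set 1, 5 members were higher and 1 was lower, beside 23.9% and 19.2% of all genes, with a median of 1.71 for the members and 1.05 for all genes. *Ldha* led with 3.97-fold (3.84 to 4.11), above 98.7% of all genes. *Hk2* stood at 2.53-fold (2.41 to 2.66), *Pkm* at 2.05-fold (1.96 to 2.13), *Aldoa* at 1.99-fold (1.92 to 2.06) and *Pgk1* at 1.96-fold (1.86 to 2.07). *Bnip3* was the lower one at 0.514-fold (0.451 to 0.586), with levels below 0.5 throughout. *Hif1a*, at 1.41-fold (1.33 to 1.499), was not called. Beside the lower stroma markers of set 3 given above, the median summed level of the 9 smooth muscle and pericyte markers in stroma-gated cells was 6.61, 9.78 and 14.6 in sets 1, 2 and 3. The part of these markers in the result was not tested.

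Against set 2, stroma-gated cells of set 3 had 6 members higher and 2 lower, beside 27.4% and 17% of all genes. *Ldha* stood at 2.88-fold (2.795 to 2.97), *Pkm* at 2.28-fold, *Pgk1* at 2.12-fold, *Hk2* at 1.97-fold, *Aldoa* at 1.87-fold and *Eno1* at 1.67-fold. *Bnip3* and *Pfkfb3* were lower at 0.606-fold and 0.581-fold. These 2 comparisons share the cells of set 3 and are not independent of each other.

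Each set was also clustered without the members and the pathway genes, and clusters of at least 100 cells in which stroma was the leading class of the gated cells were compared. Stroma-gated cells made up 50% of the gated cells in 1 cluster of set 3 (132 gated of 368 cells) and more in the others. *Ldha* ranged over 1.46 to 3.27 in the 6 such clusters of set 1, 2.22 to 2.97 in the 4 of set 2 and 6.32 to 8.195 in the 6 of set 3. The lowest cluster of set 3 lay above the highest of the other sets. The same held for *Pkm* (2.32 to 4.37 in set 3, at most 2.09 in the other sets). It also held for *Pgk1* (1.42 to 2.71, at most 1.39) and *Aldoa* (2.79 to 5.53, at most 2.24). The ranges of the other members overlapped between the sets. *Hk2* was more uneven, at 0.119 to 1.896, 0.434 to 2.33 and 0.767 to 4.17 in the 3 sets, and its clusters overlapped. *Hif1a* in stroma ranged over 0.662 to 0.864, 0.738 to 0.907 and 0.897 to 1.71. In clusters of at least 100 cells led by granulosa, the sets overlapped for both *Ldha* and *Hif1a*. *Ldha* ranged over 1.44 to 7.48, 1.84 to 8.6 and 3.66 to 10.7 in these clusters of sets 1, 2 and 3. *Hif1a* ranged over 1.06 to 3.5, 0.789 to 3.65 and 1.42 to 5.84.

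**Figure D4:**
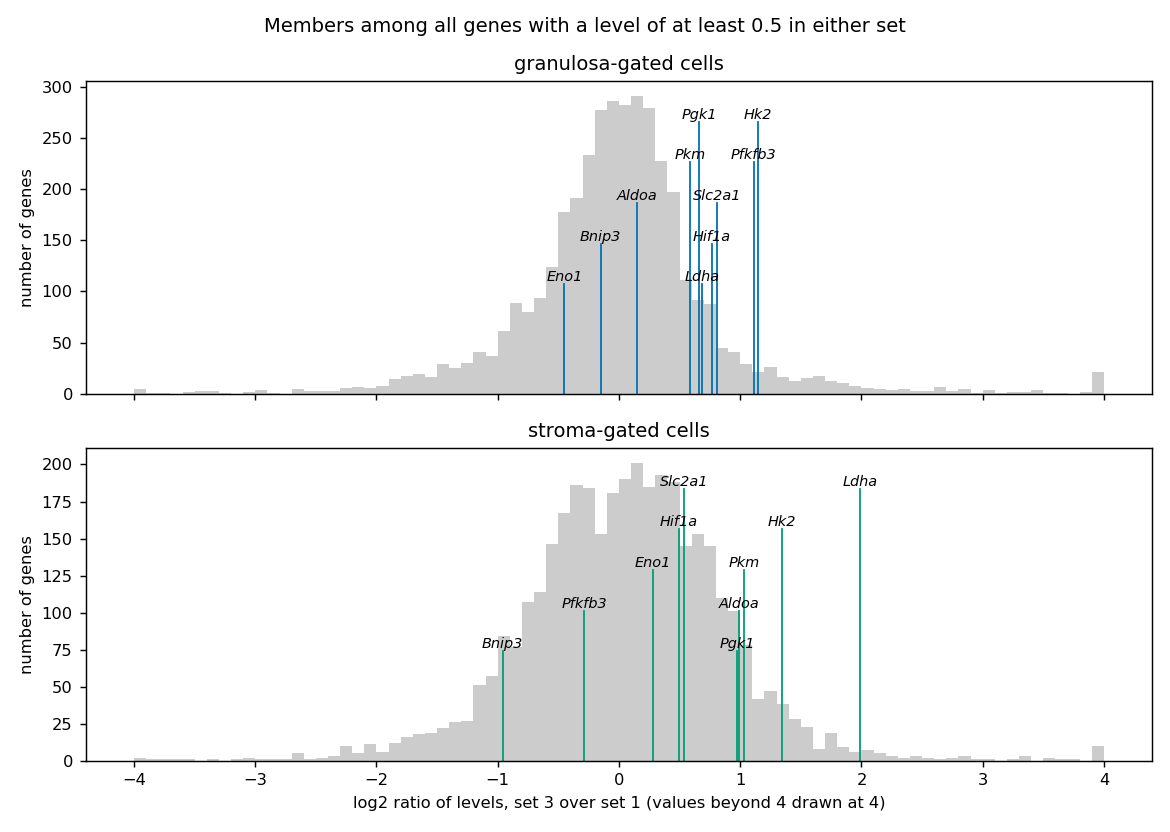
Histogram of log2 ratios of set 3 over set 1 for genes with a level of at least 0.5 in either set (gray, y axis number of genes), for granulosa-gated cells (top) and stroma-gated cells (bottom), with the 10 members marked by lines, including those below that level. In the stroma panel Ldha lies above 98.7% of all genes and Bnip3 lies to the left, and in the granulosa panel only Eno1 and Bnip3 lie left of 0.

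The difference in *Ldha* between sets 1 and 3 was seen in each class. Beside stroma, set 3 over set 1 gave 3.31-fold (3.14 to 3.49) in theca-gated, 2.22-fold (2.05 to 2.39) in endothelial-gated, 2.03-fold (1.64 to 2.53) in smooth muscle and pericyte-gated and 1.66-fold (1.31 to 2.12) in myeloid-gated cells. The granulosa ratio of 1.61-fold was the lowest of the 6 classes, with an interval that overlapped those of myeloid-gated and of smooth muscle and pericyte-gated cells. *Hif1a* did not follow this pattern, since endothelial-gated cells had 0.946-fold (0.834 to 1.07). In endothelial-gated cells 3 members were higher in set 3 than in set 1 and 2 lower, beside 13.1% and 15.2% of all genes. The higher ones were *Ldha*, *Pgk1* at 1.905-fold and *Pkm* at 1.82-fold. The lower ones were *Pfkfb3* (0.144 in set 1 and 0.0961 in set 3) and *Bnip3* (0.127 and 0.0777). Both were below a level of 0.5 in these sets. In set 2 over set 1, endothelial-gated cells had 0 members called in either direction, and 5.42% of all genes were. In myeloid-gated cells, 7 members were higher in set 3 than in set 1 and 1 was lower, beside 21.3% and 18.8% of all genes. The calls of *Slc2a1*, *Bnip3* and *Pfkfb3*, the lower one, rested on levels below 0.5 in both sets. *Slc2a1* had 0.0444 in set 1 and 0.222 in set 3, from 2 and 9 UMIs. *Bnip3* had 0.14 and 0.312, and *Pfkfb3* 0.13 and 0.0436. *Hk2* stood at 2.57-fold (1.53 to 4.48) in myeloid-gated cells and *Pkm* at 2.29-fold (1.84 to 2.88), from 136 cells in set 3 and 85 in set 1.

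Theca-gated cells of set 3 had 6 members higher than in set 1 and 0 lower, beside 19.6% and 19.5% of all genes. *Pgk1* stood at 3.47-fold (3.28 to 3.68), *Hif1a* at 3.31-fold (3.095 to 3.54) and *Bnip3* at 2.18-fold (2.001 to 2.38). Granulosa markers moved with these values, as given above. With only the cells in which *Cyp17a1* was detected, a choice made after the data had been seen, 5 members were higher and 0 lower, beside 18.3% and 21.1% of all genes. *Pgk1* was then 3.04-fold, *Ldha* 3.03-fold and *Hif1a* 2.42-fold higher. *Inha* in these cells was 14.6, 22.9 and 19.3, and the part of granulosa RNA in the result was not tested. In set 2, theca-gated *Hk2* was 2.07-fold (1.89 to 2.26) of set 1.

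Other genes of the pathway were read from lists. Of 28 other glycolysis genes, all in the table, 8 reached a level of 0.5 in granulosa-gated cells of set 3 or set 1, and 2 were higher and 1 was lower in set 3, near the 13.8% and 16.5% of all genes, with a median ratio of 1.34. *Gpi1*, the isomerase between *Hk2* and phosphofructokinase, was 1.63-fold and the platelet phosphofructokinase *Pfkp* 1.87-fold. *Slc16a1*, the lactate and pyruvate transporter MCT1, had a level of 0.699 in set 1, 1.61 in set 2 and 0.296 in set 3, with ratios of 2.31-fold for set 2 over set 1 and 0.424-fold for set 3 over set 1. Set 3 over set 2 had 5 of 8 higher (*Gpi1*, *Pfkl*, *Pfkp*, *Tpi1* and *Pgam1*) and 1 lower (*Slc16a1*, at 0.184-fold), beside 27.9% and 15.2% of all genes, with *Pfkl* at 2.47-fold and *Pgam1* at 2.19-fold. In set 2 over set 1, *Pfkl* and *Pgam1* were lower, at 0.5299-fold and 0.6595-fold.

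In stroma-gated cells, 4 of the 5 other glycolysis genes at that level were higher in set 3 than in set 1 and 1 was lower, beside 23.9% and 19.2% of all genes, with a median ratio of 1.71. The same 5 genes were called the same way in set 3 over set 2, beside 27.4% and 17% of all genes. In set 2 over set 1, 0 of them were called, where 5.33% of all genes were higher and 5.21% lower. *Gapdh*, glyceraldehyde 3-phosphate dehydrogenase, stood at a level of 2.79 in set 1 and 7.24 in set 3, a ratio of 2.59-fold, and *Pgam1*, *Gpi1* and *Tpi1* stood at 2.01-fold, 1.71-fold and 1.71-fold. The lower one was *Ldhb*, the other main lactate dehydrogenase subunit, at 0.597-fold (2.698, 3.06 and 1.61 in the 3 sets). The *Ldha* and *Ldhb* rows thus went in opposite directions in stroma. In granulosa-gated cells *Ldhb* was 3.72, 3.75 and 4.29.

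Among 9 genes of oxygen sensing and HIF subunits, 3 reached the level in granulosa-gated cells in set 3 over set 1. Of these, 2 were higher and 0 lower, beside 13.8% and 16.5% of all genes. *Epas1*, which encodes HIF-2 alpha, had levels of 0.367, 0.556 and 0.821 in the 3 sets, ratios of 1.51-fold for set 2 and 2.24-fold for set 3 over set 1, and *Egln1*, the main prolyl hydroxylase of HIF, stood at 1.597-fold. In set 3 over set 2, *Egln1* and *Egln2*, another prolyl hydroxylase, stood at 2.28-fold and 2.23-fold, where 27.9% of all genes were higher and 15.2% lower. In stroma-gated cells 0 of 2 were called in set 3 over set 1, where 23.9% of all genes were higher and 19.2% lower. Of 22 other HIF-responsive genes, 21 were in the table, and 8 reached the level in granulosa-gated cells of sets 3 or 1, 3 of them higher and 0 lower in set 3, beside 13.8% and 16.5% of all genes, with a median ratio of 1.27. They were *Ier3*, a stress-induced survival gene, at 4.14-fold, *Ddit4*, an inhibitor of mTORC1, at 2.07-fold, and the mitochondrial *Higd1a* at 1.94-fold. In set 2 over set 1, 4 of 9 were higher and 1 lower, beside 11% and 22.5%. *Vegfa*, the angiogenic growth factor, stood at 3.02-fold there, *Ier3* at 6.73-fold, the Myc antagonist *Mxi1* at 1.73-fold and the collagen lysyl hydroxylase *Plod2* at 1.57-fold, while *Bnip3l*, a paralog of *Bnip3*, was lower at 0.665-fold. In set 3 over set 2, 2 of 9 were higher (*Ddit4* at 1.87-fold and *Higd1a* at 1.68-fold) and 3 lower (*Vegfa* at 0.491-fold, *Ier3* at 0.615-fold and *Plod2* at 0.663-fold), beside 27.9% and 15.2% of all genes. In stroma-gated cells, set 3 over set 1 had *Ier3* at 1.57-fold, *Higd1a* at 2.203-fold and the lysyl oxidase *Loxl2* at 1.78-fold. *Adm* and *Bnip3l* were lower at 0.475-fold and 0.4896-fold. In stroma-gated cells 4 of 9 HIF-responsive genes at that level were higher and 2 lower, where 23.9% and 19.2% of all genes were, with a median ratio of 1.46. Set 2 over set 1 had 1 of 8 higher there, *Ier3* at 1.86-fold, and set 3 over set 2 had 3 of 8 higher, among them *Higd1a* at 1.73-fold and *Plod2* at 1.63-fold, beside 5.33% and 27.4% of all genes. Of 19 glycogen genes, 18 were in the table and 3 reached the level in granulosa-gated cells, with *Pgm1* at 1.76-fold in set 3 over set 1 and at 3.04-fold in set 3 over set 2, where *Ugp2* stood at 1.58-fold, and 0 of 2 were called in stroma-gated cells. The shares of all genes are those given above for the same comparisons.

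Over the 18 class-by-set levels, the members did not form one pattern. *Pkm* and *Pgk1* were most alike (r = 0.80 on the log2 scale), followed by *Pgk1* and *Hif1a* (r = 0.77) and *Aldoa* and *Pgk1* (r = 0.73). *Ldha* and *Hif1a* had r = 0.67. *Hk2* stood apart, with r = -0.33 to *Hif1a* and 0.13 to *Pgk1*. Among 3268 genes, those most like *Hif1a* were *Ywhaz* (r = 0.81), *Isyna1* (r = 0.79) and *Tpd52l1* (r = 0.77). Those most like *Ldha* were the spliceosome genes *Snrpd1* (r = 0.95), *Snrpb* (r = 0.94) and *Snrpa1* (r = 0.91), and the gene most like *Aldoa* was another glycolysis gene, *Pgam1* (r = 0.91). *Pgk1* was most like *Psmd2* (r = 0.90), with *Gapdh* in the third place (r = 0.89), *Hk2* was most like *Mt1* (r = 0.84), and *Bnip3* was most like *Ctsl* (r = 0.90). These 18 points share libraries, 6 to a set, and are a description only.

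The weight of a class in the tissue total depends on its cell number as well as its level. Granulosa-gated cells held 31.8%, 45.96% and 31.8% of all *Hif1a* UMIs in sets 1, 2 and 3, and 21.4%, 30.3% and 22.1% of all UMIs. Stroma-gated cells held 17.95%, 20.6% and 41.6% of *Ldha* UMIs and 45.4%, 41.6% and 69.5% of *Hk2* UMIs, beside 23.9%, 27.6% and 35.9% of all UMIs. Clusters in which granulosa was the leading class of the gated cells held 14812 cells, against 7627 granulosa-gated cells. The granulosa shares above thus hold for the gate and not for all granulosa cells. Cells in no gate held 37.1%, 29.7% and 40.7% of *Hif1a* and 29.5%, 25.2% and 28.3% of all UMIs. Their *Hif1a* level of 1.75, 1.82 and 3.58 lay between those of granulosa- and stroma-gated cells in sets 1 and 2 and next to that of granulosa-gated cells in set 3, where the intervals overlapped.

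Genes that respond to tissue dissociation, and to other stimuli as well, differed between sets too. In granulosa-gated cells of sets 1, 2 and 3, *Fos* was 14.3, 18.4 and 18.8, *Jun* 15.4, 23.1 and 20.6, *Egr1* 7.36, 16.4 and 10.1 and *Hspa1a* 1.01, 1.07 and 0.813. In stroma-gated cells *Fos* was 28.1, 16.5 and 19.9, *Jun* 28.2, 16.6 and 22.1, *Egr1* 15.1, 20.6 and 10.8 and *Hspa1a* 3.07, 3.31 and 2.98. Handling and time after hCG cannot be told apart in these values. The part of these genes in the results was not tested.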

How the data were processed

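The authors deposited 1 table of 24958 genes by 31776 cells that holds the natural log of 1 plus UMIs per 10000. The labels name Cell Ranger and Seurat without versions, and build mm10. Filters on cells, the annotation and any removal of doublets are not given in the sources used here. Columns of other series numbered 0. Whole UMIs were worked back from the logs, and 100% of the values above 0 lay within 0.01 of a whole number. A cell entered the class with the largest share of its markers detected (share of at least 0.3, at least 3 markers, lead of at least 0.15 over the next class). Cells near these limits (share below 0.4 or lead below 0.25) made up 41.8% of granulosa-gated, 32.0% of theca-gated and 8.32% of stroma-gated cells. No doublets were called. Levels, ratios and exact 95% intervals were computed in Python 3.11.15 with numpy 2.4.6, scipy 1.17.1 and pandas 2.3.3, and the scripts were tested on simulated data. Alternatives included other gates, clusters (scikit-learn 1.9.0, python-igraph 0.11.9), thinning to 3000 UMIs (3042 shallower cells left out) and 2-fold calls. Genes were named by a rule: all 10 members, listed pathway genes past 1.5-fold in granulosa- or stroma-gated cells between sets, and the 3 genes most alike in pattern over 18 groups (log2 of level plus 0.1). The members and lists were chosen with earlier results of these data known. Positions are from the GENCODE annotation of GRCm38. A gene of the HIF-responsive list is counted but not reported by name here.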

Additional observations from a re-analysis of the deposited data

Results flagged for a closer look

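Of the members, 4 had ratios between barcode sets whose counting intervals lay wholly on opposite sides of 1 in granulosa-gated and stroma-gated cells. The share of all genes that met the same rule was not computed, so this count is not read as a trait of the members. In each case the difference between the classes was not tested, since each set has no replicate. *Hk2* in set 3 over set 2 stood at 0.778-fold in granulosa-gated cells and at 1.97-fold in stroma-gated cells. *Bnip3* in set 3 over set 2 went the other way, at 1.5-fold in granulosa-gated cells and 0.606-fold in stroma-gated cells. *Eno1* in set 3 over set 1 was 0.732-fold in granulosa-gated and 1.21-fold in stroma-gated cells, and within granulosa-gated cells its direction differed between sub-gates, with 0.673-fold in antral mural and 1.61-fold in atretic-gated cells. *Aldoa* in set 2 over set 1 was 0.862-fold in granulosa-gated and 1.06-fold in stroma-gated cells, and neither the *Eno1* nor the *Aldoa* ratios over whole classes passed 1.5-fold.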

How the results depend on the processing

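No paired analysis was possible because each time point has 1 library. The 9 comparisons of granulosa-gated cells between sets, of stroma-gated cells between sets and of granulosa-gated with other gated cells were recomputed under 13 alternatives, of which division by the median ratio of all genes was chosen after seeing the data, as was the separate look at theca-gated cells with *Cyp17a1*. The other classes and the sub-gates were not recomputed in this way. Of the ratios of single members under the 11 settings that can change a ratio, 693 stayed within their counting interval, 297 moved beyond it and 0 called ratios changed direction. *Ldha* in stroma-gated cells, set 3 over set 1, lay between 3.65-fold and 5.21-fold, and *Hif1a* in granulosa-gated cells between 1.55-fold and 1.88-fold. With a 2-fold call, granulosa-gated cells had 2 members past it in set 2 over set 1 (5 at 1.5-fold), 2 in set 3 over set 1 (7) and 0 in set 3 over set 2 (4), where 13.9%, 14.2% and 19.4% of all genes passed 2-fold either way. In stroma-gated cells the 2-fold counts were 0 (1), 3 (6) and 3 (8) for the same pairs, beside 3.53%, 17.8% and 17.7% of all genes. In granulosa-gated over other gated cells they were 5 (9) in set 1 and 5 (8) in set 2, beside 21.5% and 23.9%. The stricter gate gave 4 members in granulosa-gated cells of set 3 over set 1, beside 27.3% of all genes either way. Division by the median of all genes gave 3 in granulosa-gated set 2 over set 1 (26% of all genes) and 2 in set 3 over set 2 (37.8%). The mean of log values gave 2 in the latter (45.5%), as did thinning, for which the share of all genes was not computed. Leaving out the top 10% of mitochondrial share gave 2 in stroma-gated set 2 over set 1 (10.5%). The causes were not tested. Low counts of *Pfkfb3* and *Slc2a1* limit their ratios in the smaller classes.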
